A study of Mus musculus with 14 samples.

Results

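Endothelial cells hold to one another through adherens and tight junctions, and 9 genes of these contacts were followed here through the formation of blood cells in the mouse embryo. The genes are Cdh5, Ctnnb1, Ctnnd1, Cldn5, Esam, Jam2, Jam3, Tjp1 and Pecam1, taken by symbol as 9 of the 19415 gene symbols in the E11 single-cell table, and all 9 were also among the 19313 symbols of the E10 table. In the files Cdh5 lies on chromosome 8, Ctnnb1, Esam and Jam3 on chromosome 9, Ctnnd1 on chromosome 2, Cldn5 and Jam2 on chromosome 16, Tjp1 on chromosome 7 and Pecam1 on chromosome 11.

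The study sorted single cells from the aorta-gonad-mesonephros region (AGM, the trunk tissue around the dorsal aorta) and from the yolk sac (YS), and collected whole intra-aortic haematopoietic clusters (wIAHCs) individually. RNA was counted with CEL-Seq, a 3' end method that tags molecules before amplification. Embryos were taken at E10 (28 to 32 somite pairs) and at E11 (over 40 somite pairs), and the single cells came from 12 of the 14 samples. AGMs were pooled before sorting, so embryos could not be told apart.

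3 populations came from ICR embryos with the genotype Gfi+/tomato/ Gfi1b+/GFP, in which reporters stand in for an allele of each of 2 transcription factor genes. These were non-haemogenic endothelium (non-HE, Cdh5+ Gfi1- Gfi1b- c-kit-), haemogenic endothelium (HE, Cdh5+ Gfi1+ Gfi1b- c-kit-) and cells in endothelial-to-haematopoietic transition (EHT, Cdh5+ Gfi1+ Gfi1b- c-kit+). Wild type C57BL/6 embryos gave all other groups. These were cluster cells sorted as c-kit+CD31+ (IAHC) at both stages, an E11 cluster sample sorted on c-kit alone, E11 precursors of haematopoietic stem cells (pre-HSCs, c-kit+ Cdh5+ with CD45 recorded), c-kit+ YS cells and the wIAHCs. Strain and genotype therefore change between EHT and IAHC cells, and cannot be told apart from population at that step.

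The E10 table held 43 non-HE, 98 HE, 191 EHT, 73 IAHC and 141 YS cells, each at 3000 transcripts. The E11 table held 30 non-HE, 46 HE, 46 EHT, 201 c-kit+CD31+ IAHC, 89 c-kit+ IAHC, 62 type I pre-HSC, 55 type II pre-HSC and 46 YS cells, each at 5000 transcripts. The pre-HSC sample holds both types, which were read from its column names. All 43 columns of the E10 non-HE sample carry names that begin with Early_E11, against their label. Every E10 non-HE value rests on these columns, and no E10 value of another population uses them. Names also differ within a stage. E10 HE sets begin with E10.5, and E10 EHT sets with Late_E10 (40 and 87 cells) or E10.5 (64 cells). E11 non-HE sets begin with Late_E11 (19 cells) or E11.5 (11 cells), and the E11 HE and EHT sets with Late_E11. Steps within a stage thus set differently named times side by side.

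With 1 sample per population and stage there was no replicate and no test between single-cell populations. Means are transcripts per cell with exact Poisson 95% intervals, shares of cells have exact Clopper-Pearson 95% intervals, and ratios have exact conditional binomial 95% intervals, all of which cover counting error only. Where 0 cells held a transcript, the upper limit given is 3 cells of the total, which limits cells with a counted transcript and not cells that express the gene. The columns fall into 30 sorted sets by their name prefix, 10 at E10 and 20 at E11, and the range over sets is given where a population has several. Levels are set side by side between stages only after E11 cells were thinned to 3000 transcripts.

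In adherens junctions, VE-cadherin (the product of Cdh5) binds its like on the neighbouring cell and is anchored inside by catenins. Tight junctions seal the cleft between cells with claudins and immunoglobulin-type adhesion molecules, which scaffold proteins tie to the actin skeleton. Haemogenic endothelial cells of the dorsal aorta round up and leave the vessel wall as haematopoietic cells, and must part with these contacts to do so.

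Cdh5, which encodes VE-cadherin, was at its highest in the 2 endothelial populations and stepped down through EHT to cluster cells. The non-HE, HE, EHT and pre-HSC gates selected on Cdh5 protein, while the IAHC and YS gates did not. At E10 the mean was 7.30 transcripts per cell (6.52 to 8.16) in non-HE, 4.59 (4.2 to 5.04) in HE, 2.10 (1.90 to 2.32) in EHT and 1.23 (0.991 to 1.5) in IAHC cells. The sets of these populations did not overlap, at 5.67 to 8.18 in non-HE, 4.14 to 4.87 in HE and 2.03 to 2.25 in EHT cells. YS cells held 4 Cdh5 transcripts in 3 of 141 cells, a mean of 0.0284 (0.00773 to 0.0726). The order E10 non-HE, HE, EHT, IAHC, YS had no neighbours within counting error.

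At E11, HE held 8.54 Cdh5 transcripts per cell (7.72 to 9.43) and non-HE 6.80 (5.90 to 7.80), so the order of these 2 populations was opposite to that at E10. EHT cells held 3.85 (3.30 to 4.46), type I pre-HSCs 2.92 (2.51 to 3.38) and c-kit+CD31+ IAHC cells 2.2 (2.04 to 2.46). Type II pre-HSCs at 1.45 (1.2 to 1.81) and c-kit+ IAHC cells at 1.45 (1.2 to 1.72) could not be ordered, and YS cells were lowest at 0.130 (0.0479 to 0.284). The sets of type I pre-HSCs, 1.90 to 3.68, overlapped those of c-kit+CD31+ IAHC cells, 1.80 to 2.98.

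Cdh5 was 2.18-fold lower in EHT than in HE cells at E10 (1.90 to 2.50) and 2.22-fold lower at E11 (1.85 to 2.67). From EHT to IAHC cells it was 1.71-fold lower both at E10 (1.36 to 2.17) and at E11 (1.43 to 2.04). From type I to type II pre-HSCs it was 2.01-fold lower (1.53 to 2.6). The share of cells with a Cdh5 transcript at E10 was 96.9% in HE (91.3% to 99.4%), 75.4% in EHT (68.7% to 81.3%) and 61.6% in IAHC cells (49.5% to 72.8%).

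Ctnnb1 encodes β-catenin, which binds the VE-cadherin tail at the junction and also carries Wnt signals to the nucleus. At E10 HE cells held 6.02 transcripts (5.54 to 6.53) and non-HE cells 5.26 (4.59 to 5.99), which were not separated by counting error. EHT cells held 3.02 (2.78 to 3.28), IAHC cells 1.53 (1.26 to 1.85) and YS cells 0.426 (0.325 to 0.548). YS cells had a Ctnnb1 transcript in 34.0% of cells (26.3% to 42.5%), against 99.0% in HE (94.4% to 100%).

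From HE to EHT cells at E10, Ctnnb1 was 1.99-fold lower (1.77 to 2.2), and at E11 HE cells held 6.30 (5.60 to 7.07) and EHT cells 5.43 (4.78 to 6.15), a ratio of 1.16 (0.976 to 1.38). These 2 ratios were not tested against each other. From EHT to IAHC cells Ctnnb1 was 1.97-fold lower at E10 (1.61 to 2.43) and 1.85-fold lower at E11 (1.59 to 2.15). E11 levels went on from non-HE at 7.77 (6.80 to 8.83) down to c-kit+CD31+ IAHC cells at 2.93 (2.70 to 3.18), type II pre-HSCs at 2.11 (1.74 to 2.53) and YS cells at 1.33 (1.01 to 1.7). Type I pre-HSCs at 3.08 (2.66 to 3.55) did not differ from the c-kit+CD31+ IAHC cells beyond counting error, nor c-kit+ IAHC cells at 2.42 (2.10 to 2.76) from type II pre-HSCs.

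Ctnnd1 encodes p120-catenin, which binds VE-cadherin near the membrane and holds it at the cell surface. At E10 the means were 0.907 in non-HE (0.645 to 1.2), 0.878 in HE (0.702 to 1.08), 0.545 in EHT (0.445 to 0.660) and 0.164 in IAHC cells (0.0849 to 0.287). IAHC and YS cells, at 0.128 (0.0757 to 0.202), were within counting error of each other. At E11 the means were 2.00 in non-HE (1.53 to 2.57), 1.67 in HE (1.32 to 2.09), 1.02 in EHT (0.751 to 1.36) and 0.154 in c-kit+CD31+ IAHC cells (0.105 to 0.219). Between EHT and IAHC cells Ctnnd1 was 3.31-fold lower at E10 (1.82 to 6.62) and 6.62-fold lower at E11 (4.12 to 10.8), and between HE and EHT cells it was 1.61-fold (1.2 to 2.17) and 1.64-fold lower (1.13 to 2.41). Type I pre-HSCs, at 0.468 (0.313 to 0.672), and type II pre-HSCs, at 0.364 (0.222 to 0.562), lay between EHT and c-kit+CD31+ IAHC cells and were not separated from each other.

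**Figure D1:**
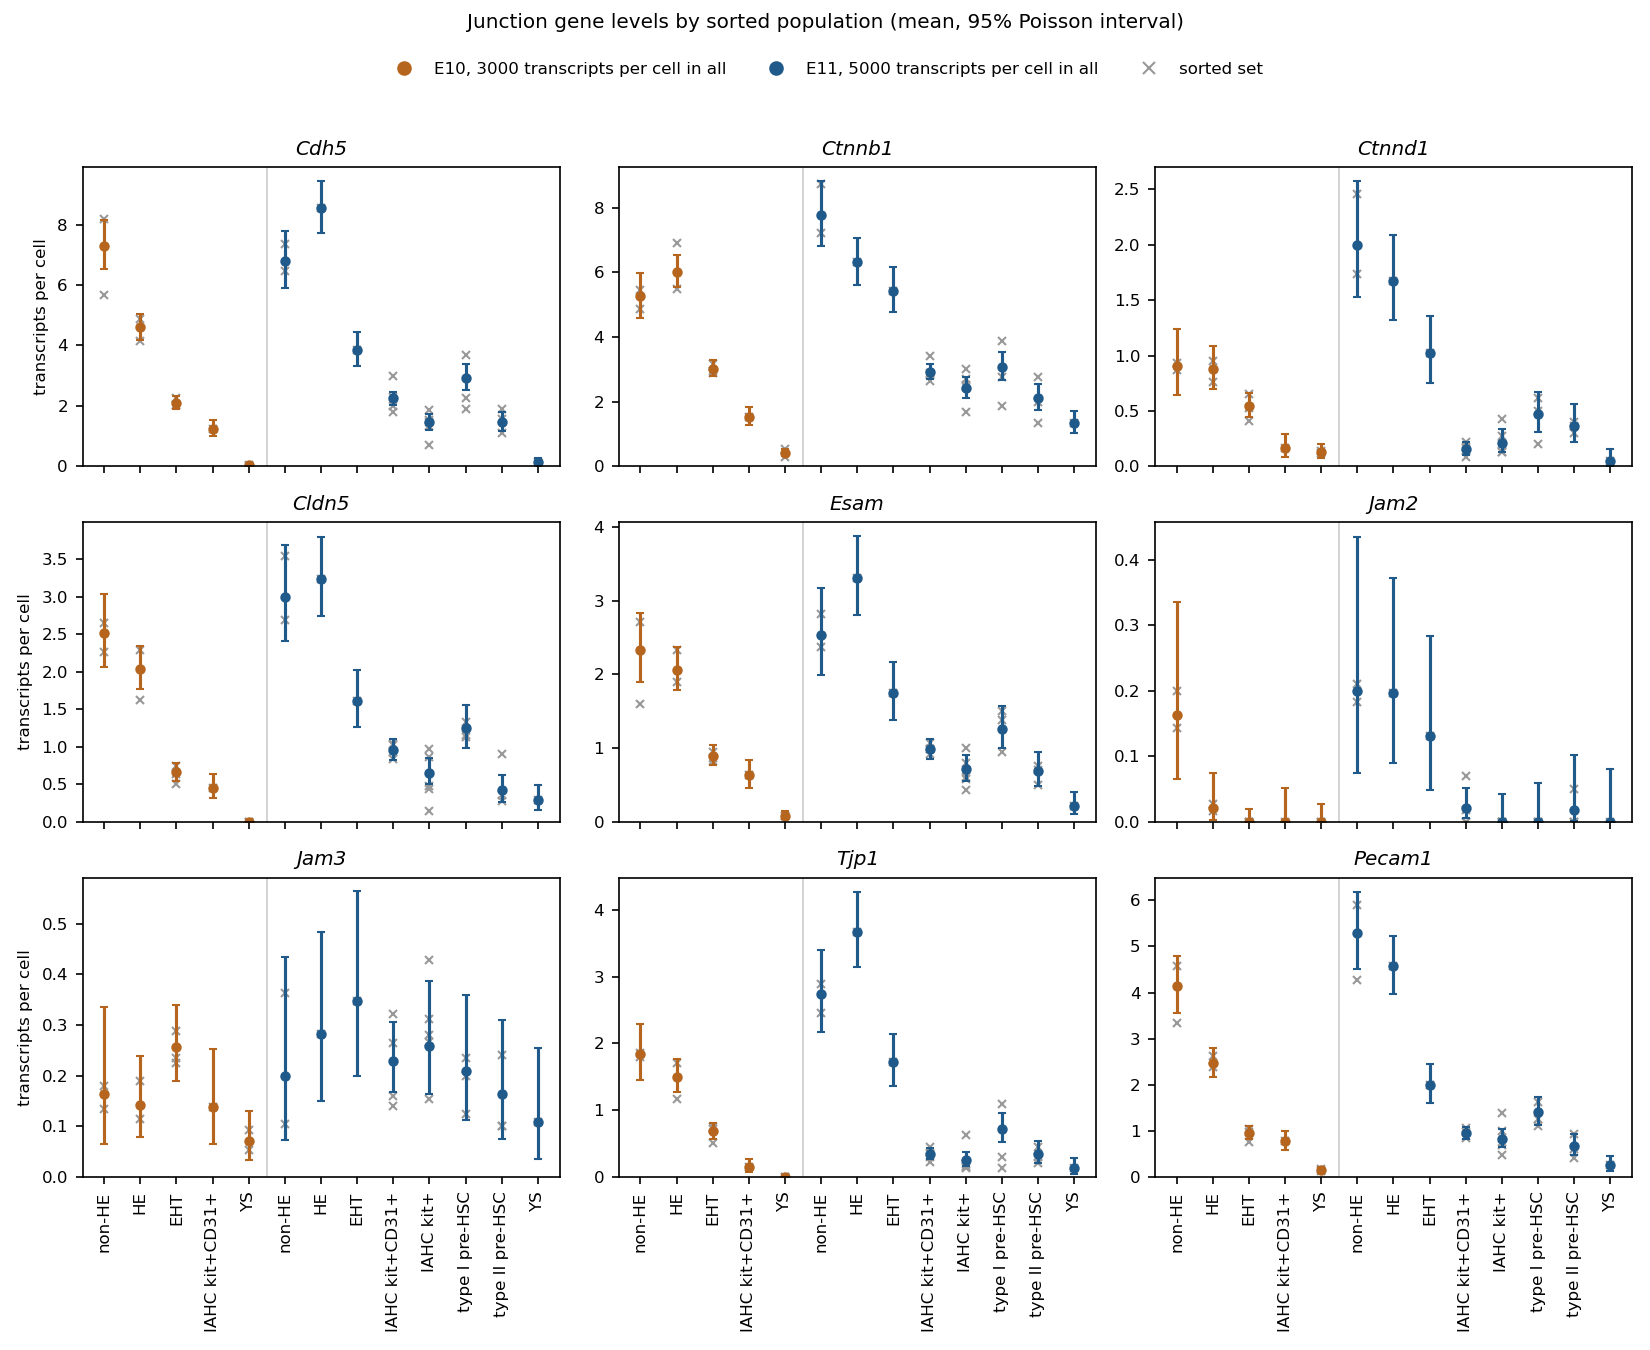
Mean transcripts per cell of the 9 junction genes (y axis, a scale of its own for each gene) by sorted population (x axis), at E10 (3000 transcripts per cell in all) and E11 (5000). Points are means with exact Poisson 95% intervals and crosses are sorted sets; Cdh5 at E10 runs from 7.30 in non-HE to 0.0284 in YS cells, while Jam3 stays between 0.0709 and 0.348 throughout.

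Cldn5 encodes claudin-5, the main claudin of endothelial tight junctions, and its level was lower in EHT than in HE cells at both stages. The means were 2.51 in non-HE (2.06 to 3.03), 2.04 in HE (1.77 to 2.34), 0.654 in EHT (0.545 to 0.780) and 0.452 in IAHC cells (0.311 to 0.635). The ratio from HE to EHT was 3.12-fold lower (2.48 to 3.93), and neither non-HE and HE nor EHT and IAHC cells were separated by counting error. Cldn5 was found in 0 of 141 E10 YS cells, with an upper limit of 2.13% on cells with a transcript at this depth. In EHT cells 59 of 191 cells held a Cldn5 transcript, and the highest held 6.

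At E11 the Cldn5 means were 3.24 in HE (2.74 to 3.80), 3.0 in non-HE (2.41 to 3.69), 1.61 in EHT (1.26 to 2.02), 1.2 in type I pre-HSCs (0.980 to 1.55) and 0.95 in c-kit+CD31+ IAHC cells (0.820 to 1.09). The step from HE to EHT was 2.01-fold lower (1.51 to 2.70). Type II pre-HSCs held 0.418 (0.265 to 0.627), 2.97-fold less than type I pre-HSCs (1.84 to 4.96). The E11 YS mean of 0.283 (0.15 to 0.483) rested on 1 cell, chosen after its values were seen, which held 12 of the 13 transcripts. Without it the mean over 45 cells was 0.0222 (0.000563 to 0.124).

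Esam encodes an immunoglobulin-type adhesion molecule found at endothelial tight junctions and on early haematopoietic cells. Its level was 2.33 in E10 non-HE (1.89 to 2.83), 2.06 in HE (1.79 to 2.37), 0.890 in EHT (0.761 to 1.03), 0.630 in IAHC (0.461 to 0.841) and 0.0780 in YS cells (0.0389 to 0.140). It was 2.32-fold lower in EHT than in HE cells (1.88 to 2.86). At E11 Esam held 3.30 in HE (2.80 to 3.87), 2.53 in non-HE (2.00 to 3.17), 1.74 in EHT (1.38 to 2.16) and 1.26 in type I pre-HSCs (0.994 to 1.6), and HE to EHT was 1.90-fold lower (1.44 to 2.52). The cluster populations still held Esam, with a transcript in 49.3% of E10 IAHC cells (37.4% to 61.3%) and, at the same 3000 transcripts per cell, 44.8% of E11 c-kit+CD31+ IAHC cells (37.8% to 51.9%).

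Jam2 and Jam3 encode junctional adhesion molecules, and both were near the limit of detection. Jam2 gave 7 transcripts in 43 E10 non-HE cells and 2 in 98 HE cells, a ratio of 7.98-fold lower with an interval of 1.5 to 78.7. It was found in 0 of 191 E10 EHT cells and 0 of 73 E10 IAHC cells, which sets upper limits of 1.6% and 4.11% on cells with a transcript. At E11 Jam2 gave 6 transcripts in 30 non-HE, 9 in 46 HE, 6 in 46 EHT and 4 in 201 c-kit+CD31+ IAHC cells, a ratio from EHT to IAHC of 6.55-fold lower (1.55 to 31.6).

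Jam3 was not lower in EHT than in HE cells at either stage. Its E10 means were 0.163 in non-HE (0.0655 to 0.335), 0.143 in HE (0.0781 to 0.240), 0.257 in EHT (0.190 to 0.339), 0.137 in IAHC (0.0657 to 0.252) and 0.0709 in YS cells (0.0340 to 0.130). At E11 Jam3 ran from 0.348 in EHT (0.199 to 0.565) to 0.109 in YS cells (0.0353 to 0.254). EHT cells thus had the highest mean at both stages, but no pair of neighbours in either order was separated by counting error.

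Tjp1 encodes ZO-1, the scaffold that links claudins and adhesion molecules to actin. Its mean stepped down from HE to EHT and again from EHT to cluster cells. At E10 it was 1.84 in non-HE (1.45 to 2.29), 1.5 in HE (1.27 to 1.8), 0.681 in EHT (0.569 to 0.808) and 0.151 in IAHC cells (0.0752 to 0.270), and it was found in 0 of 141 YS cells, with the same upper limit of 2.13%. The ratio from HE to EHT was 2.20-fold lower (1.73 to 2.81) and from EHT to IAHC 4.52-fold lower (2.44 to 9.27).

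At E11 Tjp1 was 3.67 in HE (3.14 to 4.27), 2.73 in non-HE (2.17 to 3.39), 1.72 in EHT (1.36 to 2.14) and 0.338 in c-kit+CD31+ IAHC cells (0.263 to 0.429). These gave 2.14-fold lower from HE to EHT (1.63 to 2.83) and 5.08-fold lower from EHT to IAHC (3.62 to 7.13). Type I pre-HSCs held 0.71 (0.516 to 0.953) and type II pre-HSCs 0.345 (0.208 to 0.539), but the 3 type I sets ranged from 0.125 to 1.09 and overlapped the type II sets at 0.200 to 0.440. Type II pre-HSCs and both IAHC samples were not separated from each other.

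Pecam1 encodes CD31, an adhesion molecule of endothelial contacts that is also carried by early blood cells, and CD31 protein was the gate of the c-kit+CD31+ IAHC cells. At E10 the means were 4.14 in non-HE (3.55 to 4.79), 2.47 in HE (2.17 to 2.80), 0.948 in EHT (0.815 to 1.1), 0.767 in IAHC (0.579 to 0.996) and 0.142 in YS cells (0.0866 to 0.219). HE to EHT was 2.61-fold lower (2.14 to 3.18), whereas EHT and IAHC cells overlapped within counting error. At E11 Pecam1 was 5.30 in non-HE (4.51 to 6.19), 4.57 in HE (3.97 to 5.23), 2.00 in EHT (1.61 to 2.45) and 1.4 in type I pre-HSCs (1.1 to 1.73). The E11 IAHC sample sorted on CD31 held 0.94 (0.811 to 1.08) and the one sorted on c-kit alone 0.820 (0.643 to 1.03), which were not separated by counting error. Type II pre-HSCs held 0.673 (0.474 to 0.927) and YS cells 0.261 (0.135 to 0.456).

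Promoter sequence was looked up because 6 of the members were lower in EHT than in HE cells beyond counting error at both stages. The share of all genes lower by that measure was not counted, so the 6 are not set against other genes. Past 2-fold, 10% of all genes were lower at E10 and 11.7% at E11. Of the 9 members, 4 had promoter entries in the RefSeq-based table of build GRCm38.p6, and Cdh5, Esam, Jam2, Jam3 and Pecam1 had none there. Entries of 300 bases are printed 5′ to 3′ on the gene's strand for Cldn5, Tjp1 and Ctnnd1, which were past 2-fold lower at a step, and for Ctnnb1, which was at none. Cldn5 is at chr16:18776597-18776896 on the + strand, Tjp1 at chr7:65371195-65371494 on the - strand, Ctnnd1 (its first entry) at chr2:84658928-84659227 on the - strand and Ctnnb1 (its first entry) at chr9:120933150-120933449 on the + strand. Capitals mark matches to GGAAG, the core bound by ETS-family factors, read on both strands (CTTCC on the other strand).
Cldn5: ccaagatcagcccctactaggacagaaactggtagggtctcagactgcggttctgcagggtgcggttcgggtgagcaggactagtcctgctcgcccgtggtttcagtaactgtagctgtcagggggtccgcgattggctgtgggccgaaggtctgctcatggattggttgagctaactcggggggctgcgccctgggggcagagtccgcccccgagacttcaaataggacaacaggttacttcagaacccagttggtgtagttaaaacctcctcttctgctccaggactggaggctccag
Tjp1: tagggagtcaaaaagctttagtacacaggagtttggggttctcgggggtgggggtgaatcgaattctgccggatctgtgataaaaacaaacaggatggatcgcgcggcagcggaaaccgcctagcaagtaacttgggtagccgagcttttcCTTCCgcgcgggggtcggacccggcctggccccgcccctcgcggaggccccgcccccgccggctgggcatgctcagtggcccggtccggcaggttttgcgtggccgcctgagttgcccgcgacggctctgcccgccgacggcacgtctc
Ctnnd1: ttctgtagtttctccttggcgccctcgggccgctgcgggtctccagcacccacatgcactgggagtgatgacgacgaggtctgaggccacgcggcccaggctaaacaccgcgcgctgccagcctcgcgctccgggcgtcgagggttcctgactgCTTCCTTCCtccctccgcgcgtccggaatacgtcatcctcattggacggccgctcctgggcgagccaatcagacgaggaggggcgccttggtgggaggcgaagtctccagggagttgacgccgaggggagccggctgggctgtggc
Ctnnb1: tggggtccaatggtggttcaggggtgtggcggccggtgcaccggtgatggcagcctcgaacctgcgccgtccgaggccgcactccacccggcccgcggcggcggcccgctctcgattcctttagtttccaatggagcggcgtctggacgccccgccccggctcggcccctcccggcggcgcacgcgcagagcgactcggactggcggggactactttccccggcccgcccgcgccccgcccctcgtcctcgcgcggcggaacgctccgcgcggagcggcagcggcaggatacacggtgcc

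Cldn5 and Ctnnb1 held 0 matches to GGAAG in these windows, Tjp1 held 1 and Ctnnd1 held 2, which share 1 base, all on the strand opposite to the gene. The second motif searched, the E-box CAGGTG, which reads as CACCTG on the other strand, was in 0 of the 6 entries of the members. For comparison, 23460 of all 32851 promoters in the table (71.4%) held GGAAG and 6640 (20.2%) held CAGGTG. The matches are a description of these letters.

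The steps between successive populations were then read against all genes. Genes entered where either population had at least 0.5 transcripts per cell, and past 2-fold was called on a ratio with 0.1 added to both means. A gene under the minimum in the later population could thus enter only if it was lower there, and one under it in the earlier population only if it was higher later. Jam2 and Jam3 were under this minimum at each step, and Ctnnd1 also between the pre-HSC types. From non-HE to HE, 0 of 7 members were past 2-fold at E10, against 7.46% of 1528 genes in either direction, and 0 of 7 at E11, against 7.49% of 2551 genes.

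From HE to EHT cells at E10, 5 of 7 members (Cdh5, Cldn5, Esam, Tjp1 and Pecam1) were past 2-fold lower, against 10% of 1566 genes lower and 14.2% in either direction. The members' median log2 ratio was -1.09, and that of all genes 0.05. With 0.5 added in place of 0.1, Cdh5 (-0.97), Esam (-0.88) and Tjp1 (-0.76) were no longer past 2-fold, which left 2 members. Ctnnb1 lay just inside the line, with a log2 ratio of -0.97 including the added 0.1. Without the HE set E10.5_HE_p21, which held 61 of the 98 cells, the log2 ratio was -0.94 for Cdh5, -0.69 for Tjp1 and -1.16 for Ctnnb1, and 4 members were past 2-fold lower. Without the EHT set Late_E10_EHT_p10 Tjp1 was at -0.95, which also left 4 members.

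From HE to EHT cells at E11, 3 of 7 members (Cdh5, Tjp1 and Pecam1) were past 2-fold lower, against 11.7% of 2554 genes lower and 18.4% in either direction. The median log2 ratio was -0.97 for the members and -0.05 for all genes. Cldn5 lay just inside the line at -0.97 including the added 0.1. Without 3 EHT cells that held at least 4 macrophage markers, the log2 ratio of Tjp1 was -0.96, and with 0.5 added it was -0.91, each of which left 2 members past 2-fold lower.

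From EHT to IAHC cells at E10, 2 of 7 members (Ctnnd1 and Tjp1) were past 2-fold lower, against 6.34% of 1546 genes lower and 10.4% in either direction. Both, and also Cldn5, which was not past 2-fold, were over the minimum in EHT cells only and could enter only as lower. Neither Ctnnd1 nor Tjp1 was past 2-fold with 0.5 added. The median log2 ratio was -0.73 for the members and 0.11 for all genes. Without the EHT set Late_E10_EHT_p12, EHT cells held 0.452 Ctnnd1 transcripts, under the minimum, and 1 member was past 2-fold lower. At E11, 3 of 7 members (Ctnnd1, Tjp1 and Pecam1) were past 2-fold lower, against 11.6% of 2368 genes lower and 18.1% in either direction, with medians of -0.87 and 0.04. Ctnnd1 and Tjp1 were again over the minimum in EHT cells only. Pecam1 was at the line there, with a log2 ratio of -0.99 without the IAHC set E11_ckit_CD31_2_3, -0.97 without E11_ckit_CD31_2_4, -0.97 with E11 cells thinned to 3000 transcripts and -0.80 with 0.5 added, which each left 2 members.

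From type I to type II pre-HSCs, 1 of 6 members (Cldn5) was past 2-fold lower, against 23 of 2061 genes lower and 2.09% in either direction. All 6 ratios were below 0, with a median log2 of -0.91 against 0.01 for all genes, and Cdh5 and Pecam1 each lay at -0.96 including the added 0.1. Cldn5 and Tjp1 were over the minimum in type I pre-HSCs only and could enter only as lower, so the signs and the median were partly set by the minimum. This rested in part on type I set E11_preHSC1_2_1, with 34 of the 62 cells. Without it Tjp1 was at 0.35, opposite in direction, Ctnnb1 at 0.00, Cdh5 at -0.43 and Cldn5 at -1.26, and the count stayed at 1. The count also depended on the other sorted sets, being 3 without type I set E11_preHSC1_1_1, 4 without E11_preHSC1_3_1, 2 without type II set E11_preHSC2_1_1 and 4 without E11_preHSC2_2_1. The members that then crossed the line were Cdh5 in all 4 cases, Tjp1 in 3 and Pecam1 in 2. Cldn5 itself, over the minimum in type I pre-HSCs only, was past 2-fold lower without each of the 6 sets in turn, and was at -0.92 with 0.5 added, which left 0 members. At all 7 steps, 0 members were past 2-fold higher. Few of all genes were either, at 41 of 1528 from non-HE to HE at E10 and 88 of 2551 at E11. From HE to EHT they were 66 of 1566 and 170 of 2554. From EHT to IAHC they were 63 of 1546 and 154 of 2368, and between pre-HSC types 20 of 2061.

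**Figure D2:**
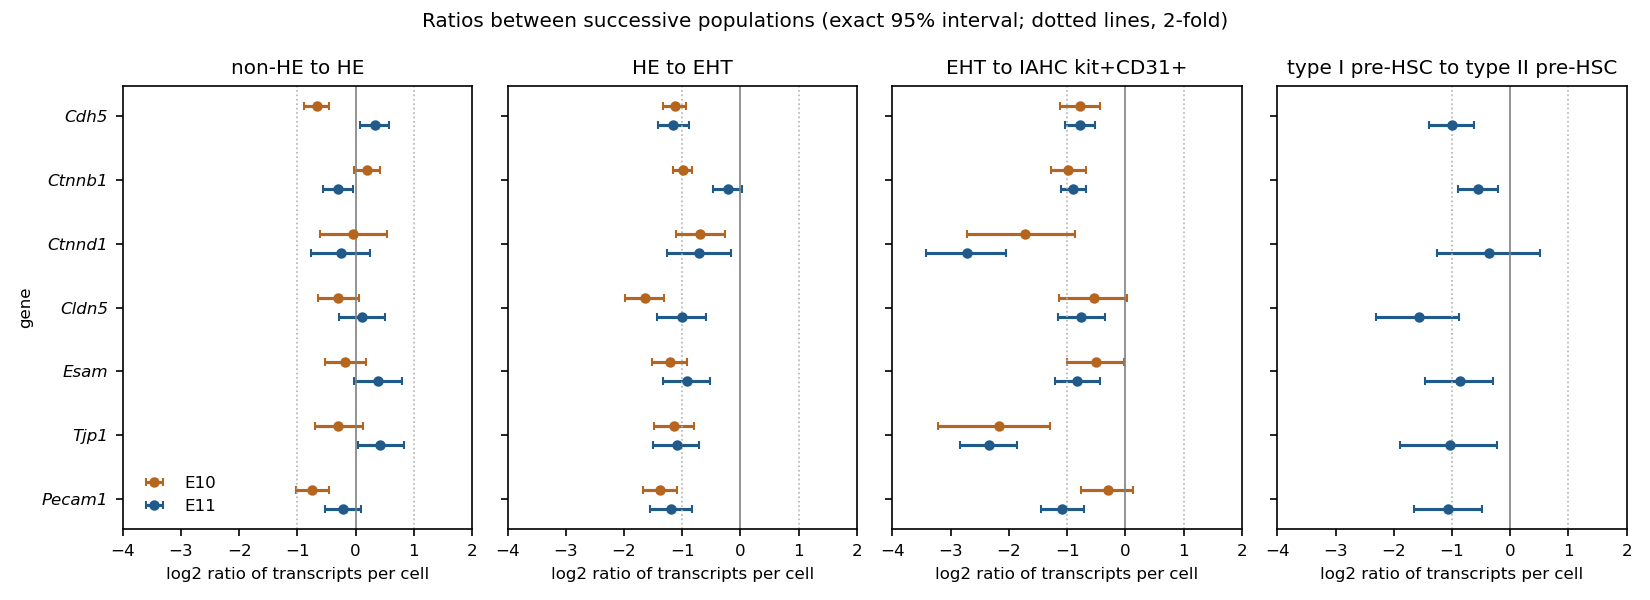
Log2 ratio of transcripts per cell, later over earlier population (x axis), for the 7 genes with enough transcripts (y axis), at 4 steps and by stage. Points carry exact 95% intervals, without added counts, and dotted lines mark 2-fold; Cldn5 has the lowest HE to EHT ratio at E10 (-1.64), and Ctnnd1 (-2.73) and Tjp1 (-2.34) the lowest EHT to IAHC ratios at E11.

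Other junction genes were described by a list of 78 genes in 8 groups. Of the 15 adherens junction genes, 6 reached 0.5 transcripts per cell in a population, and besides the members these were Ctnna1 (α-catenin), Jup (plakoglobin) and Vcl (vinculin). Ctnna1, Pvrl2, Mllt4, Marveld1, Amotl1 and Mcam, and Cgnl1 at E10, were over the minimum in HE and not EHT cells where called lower below. Ocln and Ptprb were over it in EHT and not in IAHC cells at E11. At these steps such genes could enter only as lower. The groups include the members, and the shares of all genes past 2-fold lower from HE to EHT were 10% at E10 and 11.7% at E11. At this step 2 of 4 adherens genes were past 2-fold lower at E10, the member Cdh5 and Ctnna1, which went from 0.929 to 0.335 transcripts per cell. At E11, 1 of 6 was past 2-fold lower, namely Cdh5.

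The nectin and afadin group, cell adhesion molecules and their actin linker, had 2 of 5 genes over the minimum, Pvrl2 (nectin-2) and Mllt4 (afadin). Both were past 2-fold lower from HE to EHT at E11, where Mllt4 went from 0.761 to 0.239. At E10 only Pvrl2 was over the minimum at this step, with a log2 ratio of -0.98, not past 2-fold. Of 19 tight junction membrane proteins, 5 reached the minimum, and Marveld1 went from 1.11 to 0.435 in HE to EHT at E11. Occludin (Ocln) went from 0.565 in EHT to 0.159 in IAHC cells at E11, past 2-fold lower.

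Among 14 tight junction scaffolds and polarity genes, Cgnl1 (paracingulin) was past 2-fold higher from non-HE to HE at E11, from 0.367 to 1.00. It was over the minimum in HE cells only, so it could enter this step only as higher. At this step 88 of 2551 genes were past 2-fold higher. No other gene of the whole list was past 2-fold higher at any step. At E10 Cgnl1 went from 1.13 in HE to 0.403 in EHT cells, and at E11 Amotl1 (angiomotin-like 1) from 0.674 to 0.196. The group of other endothelial contact proteins had 4 of 7 genes past 2-fold lower from HE to EHT at E10, against 10% of all genes, and 5 of 8 at E11, against 11.7%, with the member Pecam1 among them at both stages. Mcam (CD146) went from 0.612 to 0.0995 at E10, and Ptprb, the phosphatase that associates with VE-cadherin, from 4.04 to 1.28 at E11 and on to 0.249 in IAHC cells.

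The 5 cadherin repressors of the Snail, Zeb and Twist families and the 6 Wnt readout genes had 0 genes over the minimum at any step, so neither group could be described at this depth. Of the 2 sheddases, which cleave adhesion molecules from the surface, Adam10 was over the minimum at all 7 steps and past 2-fold at 0. Its means at E10 were 1.16 in HE, 0.859 in EHT and 0.49 in IAHC cells.

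Stages were set side by side at 3000 transcripts per cell. In non-HE cells 4 members were lower at E11, with log2 ratios of -0.93 for Cdh5 (-1.25 to -0.62), -0.67 for Esam (-1.21 to -0.14), -0.62 for Cldn5 (-1.14 to -0.12) and -0.45 for Pecam1 (-0.83 to -0.08). These rest on the E10 non-HE columns named Early_E11. In HE cells Ctnnb1 was lower at E11 by a log2 ratio of -0.76 (-1.01 to -0.50), while Tjp1 was higher at 0.63 (0.26 to 1.00) and Pecam1 at 0.32 (0.01 to 0.63). In EHT cells Tjp1 was higher at E11 by 0.56 (0.04 to 1.05), and Jam2 went from a mean of 0 to 0.0652, with a lower limit of 0.78 on the log2 ratio. In YS cells Cldn5 and Tjp1 each went from a mean of 0 to 0.109, with a lower limit of 1.49, and all the E11 Cldn5 transcripts were in 1 cell. In c-kit+CD31+ IAHC cells Pecam1 was lower by -0.54 (-1.02 to -0.05), and Cdh5 was at 0.21 (-0.14 to 0.57). Each of these ratios sets 1 sample against 1. The share of all genes beyond counting error between stages was not counted, so the members are not set against other genes here.

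The members were also counted in each cell at 3000 transcripts. The median cell held transcripts of 7 members in E10 non-HE, 6 in HE, 4 in EHT, 3 in IAHC and 1 in YS cells. The share of cells with at least 5 members was 90.8% in E10 HE (83.3% to 95.7%), 35.1% in EHT (28.3% to 42.3%) and 16.4% in IAHC cells (8.79% to 27%). Cells ranged from 1 to 8 members in E10 HE and from 0 to 8 in E10 EHT, with quartiles of 5 to 7 and of 3 to 5, and from 1 to 8 in E11 EHT cells.

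At E11 the medians were 6 members in non-HE and HE, 4.5 in EHT, 3 in c-kit+CD31+ IAHC and in both pre-HSC types, 2 in c-kit+ IAHC and 1 in YS cells. At least 5 members were found in 50% of EHT cells (34.9% to 65.1%), 33.9% of type I pre-HSCs (22.3% to 47%) and 10.9% of type II pre-HSCs (4.11% to 22.2%). Before thinning, at 5000 transcripts, these shares were 71.7%, 58.1% and 21.8%. Cells without any member transcript made up 42.6% of E10 YS cells (34.3% to 51.2%) and 5.48% of E10 IAHC cells (1.51% to 13.4%).

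Detection of Cldn5, Esam and Tjp1 was read beside that of Cdh5 in the same cells. In E10 EHT cells, 55 of the 59 cells with Cldn5 also held Cdh5, which was found in 144 of all 191. In E11 c-kit+CD31+ IAHC cells at 3000 transcripts it was 61 of 70 cells, with Cdh5 in 62.7% of all 201 cells, in E11 c-kit+ IAHC cells 14 of 22, with Cdh5 in 36 of all 89, and in type II pre-HSCs 10 of 13, with Cdh5 in 32 of all 55. Esam shared cells with Cdh5 in 77 of 101 E10 EHT cells and 58 of 90 E11 c-kit+CD31+ IAHC cells, and Tjp1 shared cells with Cdh5 in 74 of 83 E10 EHT cells and 23 of 31 E11 c-kit+CD31+ IAHC cells. These counts describe detection, which depends on the level of each gene.

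**Figure D3:**
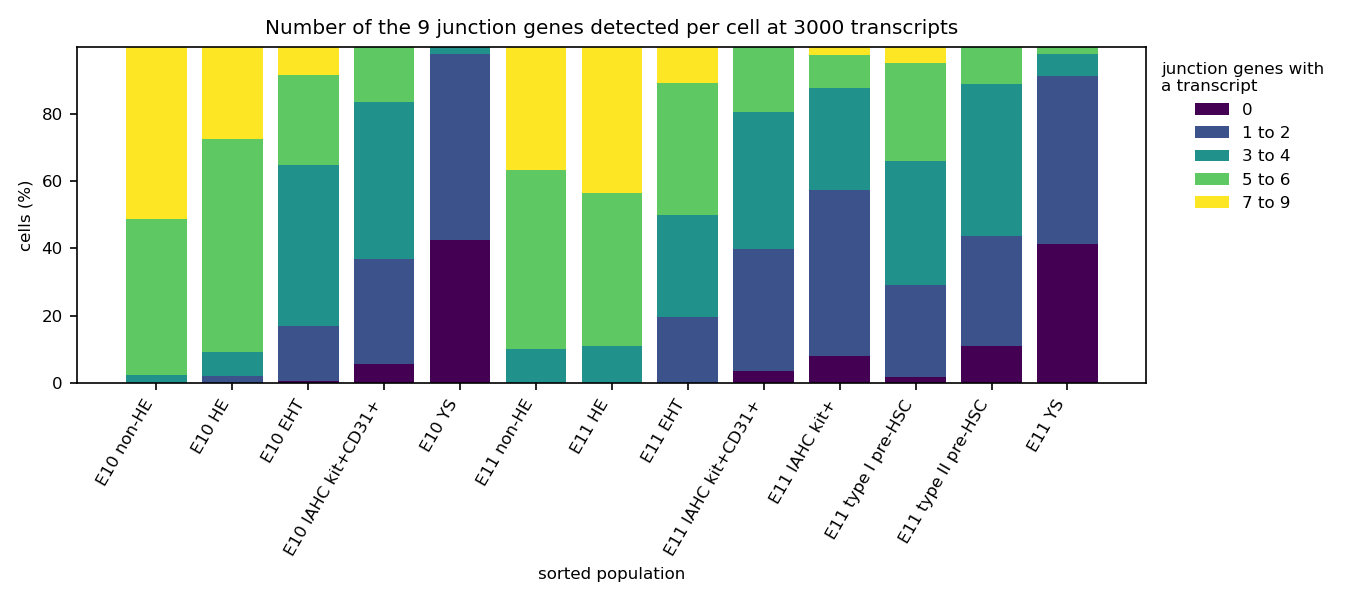
Share of cells in percent (y axis) by the number of the 9 junction genes with a transcript, for each sorted population (x axis) with all cells at 3000 transcripts. Most non-HE and HE cells hold 5 or more of the genes and most YS cells 0 to 2, with E10 EHT cells (median 4) in between.

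Likeness of pattern was measured as Pearson's r of log2 mean levels over the 13 populations at 3000 transcripts, among 2400 genes. The populations share embryos, strains and sorts, so r is a description. The 5 genes most like Cdh5 were Igf2 (0.993), Vwf (0.989), Esam (0.989), Col18a1 (0.988) and Fn1 (0.985), which encode a growth factor, von Willebrand factor, the member Esam, a basement membrane collagen and fibronectin. Those most like Ctnnb1 were Rtn4 (a reticulon, 0.978), Mecom (a transcription factor, 0.977), Gna11 (a G protein subunit, 0.975) and the members Esam (0.972) and Cldn5 (0.972). Cdh5 and Ctnnb1 had an r of 0.959 with each other, and Ctnnd1 an r of 0.826 with Cdh5.

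Cell type markers were read beside these levels, at 3000 transcripts per cell. All 12 endothelial markers were found in E10 non-HE, HE, EHT and IAHC cells, and their sum was 35.4, 26.8, 9.30 and 7.19 transcripts per cell in that order, against 1.23 in YS cells, where Kdr and Sox17 were at 0. Ramp2 was the most abundant in non-HE, HE and EHT cells and Egfl7 in IAHC and YS cells. The endothelial sum thus moved with the junction genes, whose own sum was 24.6, 19.72, 9.10, 5.07 and 0.872.

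At E11 the endothelial sum was 27.3 in non-HE, 32.6 in HE, 11.7 in EHT, 7.41 in c-kit+CD31+ IAHC, 4.70 in c-kit+ IAHC, 6.71 in type I pre-HSC, 4.53 in type II pre-HSC and 2.26 in YS cells. The most abundant was Ramp2 in the first 3 and Egfl7 in the others, and Flt1 was at 0 in type II pre-HSCs and, with Sox17, in YS cells. The junction sum in the same order was 18, 19, 10.46, 5.28, 4.17, 6.84, 4.11 and 1.4. How far the junction ratios reflect a mix of endothelial and haematopoietic cells within a gate was not tested.

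The 10 haematopoietic markers, led by Gpr56 in most populations, summed to 0.302 in E10 non-HE, where Coro1a and Sfpi1 were at 0, 2.22 in HE, 8.93 in EHT, 11.9 in IAHC and 9.50 in YS cells. At E11 the sum was 0.233 in non-HE, 1.28 in HE, 7.43 in EHT, 8.93 in c-kit+CD31+ IAHC, 6.87 in c-kit+ IAHC, 8.08 in type I pre-HSC, 9.55 in type II pre-HSC and 8.41 in YS cells. In E11 non-HE 3 of the 10 had a transcript and in HE 6, with Itga2b, Myb, Ptprc and Rac2 at 0 in both. The list includes Kit, Gfi1, Ptprc (CD45) and Gpr56, each used to sort or select some of these populations. Part of the differences between these sums was thus set by how the cells were chosen.

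The 9 macrophage markers summed to at most 0.534 in all populations but E11 EHT cells, where they reached 2.15, with Ctss the most abundant and C1qa, Emr1 and Mrc1 at 0. All 9 were at 0 in non-HE cells of both stages. The erythroid list had 10 of 12 genes in the tables and summed to 1.6 in E10 IAHC, 2.13 in E10 YS, 2.23 in type I pre-HSC, 1.58 in type II pre-HSC and 3.28 in E11 YS cells, led by Hbb-y or Hbb-bh1, and to at most 0.694 elsewhere. The 9 mesenchymal markers summed to at most 0.933, in E11 non-HE, where Col3a1 led. The 4 epithelial markers summed to at most 0.575, in E10 IAHC cells, where Krt18 led and Cdh1 was at 0. The part of these cells in the junction values was not tested, beyond the values given without macrophage-marked cells.

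**Figure D4:**
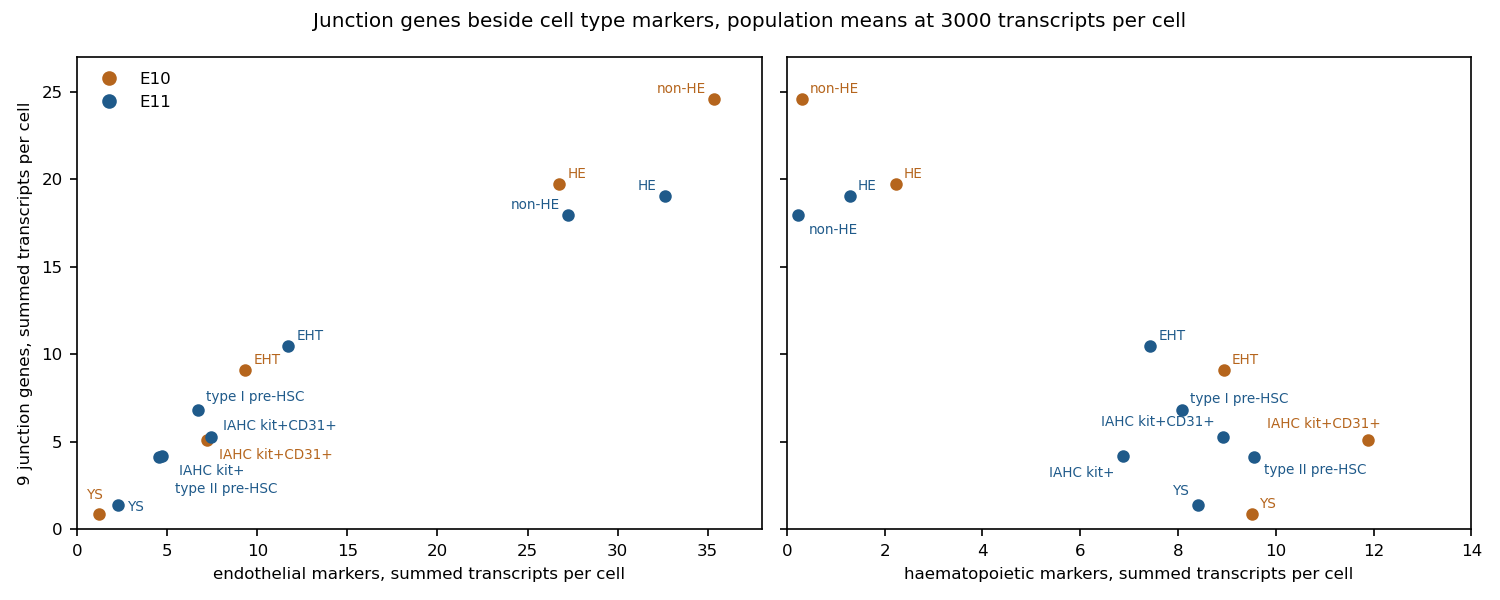
Summed transcripts per cell of the 9 junction genes (y axis) against the summed endothelial markers (left) and haematopoietic markers (right), 1 point per population at 3000 transcripts per cell. The junction and endothelial sums are both lowest in E10 YS cells, at 0.872 and 1.23, and both highest in E10 non-HE cells, at 24.6 and 35.4; no interval is drawn.

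For whole clusters the table held 109 libraries, each of a single wIAHC, so that stage and side of the aorta could be tested between libraries. Of these, 57 held at least 5000 transcripts and were used, 21 of 36 E10 ventral, 7 of 18 E10 dorsal, 17 of 34 E11 ventral and 12 of 21 E11 dorsal. Their median totals were 14538, 14063, 12838 and 8244 transcripts, over a range of 5099 to 115328. Levels are transcripts per 10000. The embryos behind the libraries were not given in the sources used here, so p-values rest on the spread between these libraries, which may be technical. In a whole cluster, fewer cells that express a gene and less RNA per cell cannot be told apart.

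Ctnnb1 was detected in all but 2 of the 57 libraries. Its lowest, median and highest values were 0, 5.48 and 9.58 in E10 ventral, 3.47, 5.33 and 12.2 in E10 dorsal, 1.2, 5.39 and 10.3 in E11 ventral and 0, 5.46 and 14.9 in E11 dorsal wIAHCs. The 4 groups overlapped widely. Cdh5 medians were 1.84 (0 to 10.03), 1.82 (0 to 3.02), 2.05 (0 to 4.9) and 3.0 (0 to 8.96) in the same order of groups, and those of Pecam1 0.691 (0 to 3.04), 0.712 (0 to 2.19), 0.978 (0 to 2.91) and 1.88 (0 to 4.7).

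The other members were sparse in single libraries. Jam2 was found in 2 E10 ventral and 2 E11 ventral libraries and in 0 of 19 dorsal ones. Cldn5 was found in 13 of 21 E10 ventral, 3 of 7 E10 dorsal, 8 of 17 E11 ventral and 9 of 12 E11 dorsal libraries. Esam medians ran from 0.615 to 1.4, Ctnnd1 medians from 0.357 to 0.821, and Jam3 medians were 0.807 in E10 ventral and 0 in the other groups.

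Stage and side were tested with edgeR's quasi-likelihood test on 260 genes that passed its filter on low counts, of which Ctnnb1 was the 1 member and the 1 gene of the junction list. E11 against E10, 0 of 1 member was called on the ventral side, against 31.2% of genes (81, of which 47 higher), and 0 of 1 on the dorsal side, against 9.23% (24, of which 19 higher). With the set in the column name (E11_iAHC or E11_iAHC2) as a covariate, the ventral count was 39. Each E10 group held 1 such set and each E11 group 2, so the covariate divided E11 libraries only. The labels do not say what these sets stand for. Ctnnb1 had a log2 fold change of 0.11 (SE 0.23, adjusted p = 0.740) on the ventral and 0.61 (SE 0.36, adjusted p = 0.313) on the dorsal side in edgeR. The dorsal value was 0.14 with a minimum count of 1, 0.11 with no filter and 1.01 with a minimum of 10000 transcripts per library. Ventral against dorsal, 0 members and 0% of genes were called at E10, 0 members and 0% of genes at E11, and 0 members and 0% of genes for the interaction of stage and side. In these 3 comparisons edgeR had 20, 23 and 26 genes at an unadjusted p under 0.05, and DESeq2 called 0 in each, while edgeR called 8, 12 and 21 of 13627 genes with no filter and 8, 8 and 19 of 6411 with a minimum count of 1. For Ctnnb1 the edgeR log2 fold changes were 0.15 (adjusted p = 0.955), -0.34 (adjusted p = 0.727) and -0.50 (adjusted p = 0.776). The sign for E11 against E10 on the ventral side and for the sides at E11 turned with other filters.

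With a lower filter, a minimum count of 1 chosen after seeing that 1 member had passed, 8 members and 6411 genes were tested. Tjp1 was then the 1 member called, in E11 against E10 dorsal libraries, against 2.04% of genes (131, of which 30 higher and 101 lower). Its values were 0 to 0.712 with a median of 0 over 7 E10 dorsal libraries, 3 of which held a transcript, and 0 to 4.68 with a median of 1.4 over 12 E11 dorsal libraries, 9 of which did. The groups overlapped, since 3 E11 dorsal libraries were also at 0. The edgeR log2 fold change was 2.79 (SE 0.74, adjusted p = 0.0190; 0.0332 with no filter), while the median over all genes was -0.33. The E10 side rested on 3 transcripts against 25 at E11, a pooled log2 ratio of 3.74 with a counting interval of 2.03 to 6.11. Pooled in the same way on the dorsal side, Cldn5 (1.96, 0.62 to 3.47), Esam (1.5, 0.52 to 2.57), Cdh5 (0.84, 0.21 to 1.5) and Ctnnb1 (0.74, 0.30 to 1.19) also had intervals above 0. These intervals leave out the spread between libraries, and 1 library held 115328 of the 202562 pooled E10 dorsal transcripts.

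On the ventral side Tjp1 had medians of 0.212 at E10 and 0.978 at E11 and an edgeR log2 fold change of 1.09 (adjusted p = 0.125), and the interaction of stage and side had an adjusted p of 0.711 in edgeR, so no difference between sides was shown. Of the junction list at this filter, edgeR called Mllt4 higher at E11 on the ventral (log2 1.5, adjusted p = 0.0389) and dorsal side (log2 2.92, adjusted p = 0.0465). Rap1b, a small GTPase that acts on junctions, was called lower on the ventral side (log2 -0.99, adjusted p = 0.0290, edgeR). None of these was called without a filter. The ventral calls were 1 of 2 nectin and afadin genes tested and 1 of 8 other contact genes. Of all genes, 281 of 6411 were called on that side. No other junction gene was called in the 5 comparisons at this filter.

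**Figure D5:**
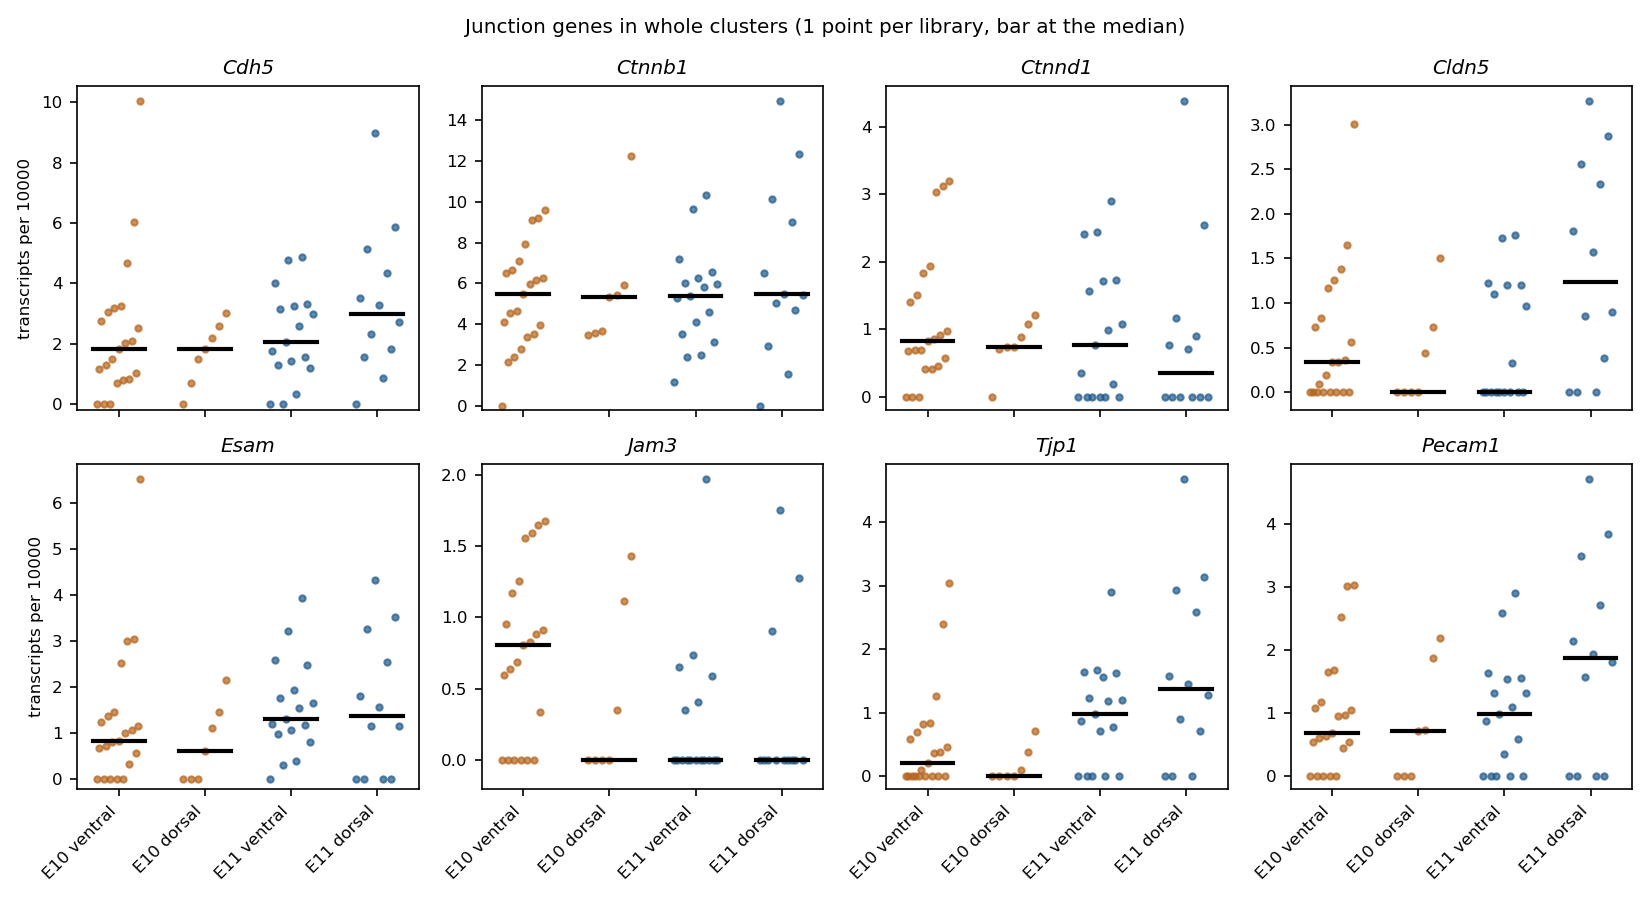
Transcripts per 10000 (y axis) of 8 junction genes in the wIAHC libraries with at least 5000 transcripts, by stage and side (x axis), 1 point per library with a bar at the median. Groups overlap in each gene; Tjp1 has medians of 0 in E10 dorsal and 1.4 in E11 dorsal libraries.

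Markers in the same libraries were read beside Tjp1. The 12 endothelial markers summed to medians of 10.9 per 10000 in E10 ventral, 10.2 in E10 dorsal, 12.6 in E11 ventral and 20.1 in E11 dorsal libraries, with Cd93 the most abundant in the first and Egfl7 in the others, and Sox17 at 0 in E10 dorsal. The 10 haematopoietic markers, led by Gpr56, had medians of 22.4, 22.7, 22.5 and 23.8. The erythroid list, led by Hbb-y, had medians of 1.5, 3.01, 30.3 and 19. Haemoglobin genes held over 5% of transcripts in 2 E11 ventral and 2 E11 dorsal libraries and in 0 at E10.

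Macrophage marker medians, led by Lyz2, were 1.27, 0.606, 0.707 and 0 in the same order of groups, with C1qa, C1qb, Ctss and Emr1 at 0 in each. The mesenchymal medians were 0, 0.0869, 1.2 and 2.41, with Pdgfrb at 0 in each, and the epithelial medians, led by Krt18, 0.343, 0.613, 0.655 and 0. The endothelial and mesenchymal sums were thus higher in the E11 dorsal libraries, where Tjp1 was higher, and their part in it was not tested.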

How the data were processed

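Single cells and single wIAHCs were sequenced with CEL-Seq, and per the labels the reads were aligned by the authors with BWA 0.6.2-r126 to mm10. The single-cell values are estimated counts of transcripts, which the authors derived from molecule tags (UMIs), reduced to an equal total per cell and deposited with 0.1 added. The wIAHC values are deposited estimated counts, corrected by the authors for UMI collisions (256 UMI sequences) and not scaled for depth.

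Here 0.1 was subtracted, which gave whole numbers summing to 3000 per E10 and 5000 per E11 cell. Columns were assigned to populations by their prefix, and 0 columns were left over. Column-name numbers, whose meaning the names do not give, recurred between sorted sets (93 numbers at E10 and 95 at E11), and 0 pairs of columns were identical. No doublet caller was run: wells received sorted cells, and totals were made equal before deposit. E11 cells were thinned to 3000 by seeded sampling.

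wIAHC counts were rounded after 90 spike-in entries were left out, and tested in 1 fit of 4 groups with edgeR 4.0.16 (TMM, filterByExpr, quasi-likelihood, Benjamini-Hochberg over all genes tested) in R 4.3.3, with DESeq2 1.42.0 as an alternative. Other steps used Python 3.11.15 with numpy 2.4.6, scipy 1.17.1, pandas 2.3.3 and matplotlib 3.10.9. The scripts' tests were checked on simulated data. Named genes are all 9 members, the gene with the largest ratio in each junction group, junction genes called, and the 5 genes most like Cdh5 and Ctnnb1. The members and gene lists were chosen with earlier results of these data known. Alternatives covered depth, the added count, the minimum level, macrophage-marked cells, IAHC cells purified at the deposited depth and each sorted set left out. For wIAHCs they covered the minimum total, low-count filters, haemoglobin-rich libraries and the set in the column name.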

Additional observations from a re-analysis of the deposited data

Results flagged for a closer look

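In 7 E10 dorsal wIAHC libraries, the highest Ctnnb1 value, 12.2 transcripts per 10000, lay far from the other 6, and so did the lowest Ctnnd1 value, 0. Both came from 1 library, the smallest of the 7 with 6656 transcripts, and 3 of the others held a single Ctnnd1 transcript. Chance marks about 1 in 20 groups this way, and 8 groups were looked at.

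Of the 52 wIAHC libraries with under 5000 transcripts, which were left out of the main comparisons, 36 held a transcript of a member. Pooled, they held 12.6 member transcripts per 10000, against 13.2 in the libraries used and 0.299 as the limit that a count of 0 allows.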

How the results depend on the processing

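Of 103 values of the 14 member ratios past 2-fold under alternative settings, 88 stayed past 2-fold, 15 did not (8 of them with 0.5 added in place of 0.1) and 0 changed sign. With 0.5 added, 2 members were past 2-fold from HE to EHT at E10, 0 from EHT to IAHC at E10 and 0 between pre-HSC types, since a larger added count shrinks ratios of low genes. Leaving out sorted sets gave 1 from EHT to IAHC at E10 (without Late_E10_EHT_p12) and 3, 4, 2 and 4 between pre-HSC types (without E11_preHSC1_1_1, E11_preHSC1_3_1, E11_preHSC2_1_1 and E11_preHSC2_2_1).

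In wIAHCs, edgeR calls for E11 against E10 on the ventral side were 310 with no low-count filter. They were 281 with a minimum count of 1 (chosen after seeing the data). A minimum of 10000 transcripts gave 132, and the column-name set as a covariate gave 39. Dorsal calls were 107 with no filter, 131 with the minimum count of 1 and 3 with the minimum of 10000 transcripts, which left 5 libraries per stage. No filter and the minimum count of 1 gave 8 and 8 between sides at E10, 12 and 8 between sides at E11 (1 without haemoglobin-rich libraries) and 21 and 19 for the interaction. They test more genes, and each called 1 member on the dorsal side, Tjp1 (adjusted p = 0.0332 and 0.0190). The log2 fold change of Ctnnb1 changed sign on the ventral side, to -0.10 with no filter, -0.0839 with the minimum count of 1 and -0.00389 with the covariate, and between sides at E11, to 0.0308 and 0.0385; the cause was not tested. Of the counts, 97 alternative values stayed within 1.5 times the reported count and 24 did not. Among single-gene values, 391 stayed within their error or side of the threshold and 37 moved.

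Depth limits Jam2 and Jam3, the Wnt readout and the cadherin repressors, which were under 0.5 transcripts per cell. Populations are 1 sample each, so intervals hold counting error and not differences between embryos.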

Other observations

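A single E11 YS cell, singled out after its values were seen, held 26 of the 115 member transcripts of the 46 YS cells. It held 12 Cldn5, 5 Ctnnb1, 3 Cdh5, 2 Esam, 2 Tjp1, 1 Ctnnd1 and 1 Pecam1 transcripts. It also held 27 endothelial marker transcripts, where the other 45 cells had a median of 3 (0 to 10), and 1 haematopoietic marker transcript, where the others had a median of 14 (2 to 26).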
